A study of Mus musculus with 16 samples.

Results

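The genes described here encode the protein parts of the cytoplasmic ribosome of the mouse. They were found by symbol alone, as the rows of the count table named Rpl or Rps followed by a number and letters, together with Rplp0, Rplp1, Rplp2, Rpsa and Rpl22l1, and without the kinases named Rps6k. The rule gave 87 of 30451 genes, 33 of the small 40S subunit and 54 of the large 60S subunit. All 87 were found in the GENCODE M21 annotation of GRCm38, where 83 are annotated as protein coding and Rpl32l, Rpl37rt, Rpl6l and Rps4l as pseudogenes.

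Each ribosome carries a single copy of nearly every ribosomal protein, so that cells make these proteins in near equal numbers and their mRNAs are among the most abundant in any dividing cell. Many of these mRNAs start with a run of pyrimidines through which their translation is switched on together by growth signals. A few ribosomal proteins have a second gene, a paralog, and several paralogs of genes on the X chromosome are known from the male germ line, in which the X chromosome is silenced later, during meiosis.

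The cells came from dissociated whole testes at postnatal day 2, when the germ cells are gonocytes lying among Sertoli cells inside the cords. One genotype was wild type. The other was the Ddx5 conditional knockout, made from floxed Ddx5 alleles with Cre driven by the germ cell promoter Mvh, in crosses of Ddx5+/- males with flox/flox females. Cre acts in germ cells, and an allele inherited already deleted would be absent from the somatic cells too. Transcripts of GFP, the product of an Oct4-GFP transgene used in the study, were counted in both genotypes. Heterozygous Ddx5 males are named among the controls in the methods, while the labels say wild type, and how many animals were pooled is not stated in either. The labels list 8 libraries per genotype, but the barcodes carry only 2 suffixes, so that each genotype was 1 library here and no test between genotypes was possible. No file ties a suffix to a genotype, and the number of cells left after filtering was used to tell them apart, which made suffix 3 the wild type. CRE transcripts gave 0 unique molecular identifiers (UMIs, each counting 1 captured mRNA molecule) in the kept cells of the first and 20 in those of the second. The libraries shared 12 barcode sequences.

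Of 12186 barcodes, 11279 passed the filters of 2000 genes or more and no more than 10% of UMIs from mitochondrial genes, and 7788 of these met exactly 1 of 5 cell type rules. The rules were at least 3 of Dazl, Ddx4, Mael and Stk31 for germ cells, at least 3 Amh UMIs for Sertoli cells, at least 20 UMIs of Cyp11a1, Cyp17a1 and Hsd3b1 for Leydig cells, at least 5 Acta2 UMIs for myoid cells and at least 1 Pdgfra UMI for stroma cells. In wild type they gave 67 germ, 1941 Sertoli, 125 Leydig, 109 myoid and 2139 stroma cells, and in the other library 8, 1349, 102, 61 and 1887. Another 3171 cells met more than 1 rule and were left out. Summed markers of each type were highest in their own groups. Levels are in counts for every 1000000 UMIs (CPM). The kept myoid cells still held stroma markers at 4628 CPM in wild type and 3689 CPM in the other library. Their myoid markers were at 5930 and 5162 CPM. The rule gene Dazl was at 1430 CPM in wild-type germ cells and at 686 CPM in the 8 germ cells of the second library. Ddx4 (440 and 247 CPM) and Stk31 (397 and 291 CPM) were also lower there, while Mael (412 and 537 CPM) was higher. Of 8 markers outside the rule, Dnd1 (86.1 and 87.9 CPM), Dppa5a (104 and 87.9 CPM) and Pou5f1 (30.0 and 27.0 CPM) were close in the germ cells of the 2 libraries. Mov10l1 (241 and 135 CPM), Tdrd1 (96.0 and 33.8 CPM) and Sall4 (303 and 33.8 CPM) were lower in the second, and Dmrt1 (168 CPM in wild type) and Nanos3 (22.9 CPM) had 0 UMIs there. The level of Ddx5 there was the reverse of its label. It stood at 1237 CPM in wild-type germ cells (exact Poisson 95% interval 1191 to 1284) and at 1842 CPM (1690 to 2003) in those of the other library. Whether the 3′ reads cover the deleted part is not given in the sources used here. Therefore the second library, which is labelled Ddx5 knockout, is called the KO-labelled library, and where 2 values are joined by "and" the wild-type library comes first.

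Because the kit counts 3′ ends by UMI, a molecule counts once whatever its length, and CPM was not divided by length. Equal capture and assignment of reads across genes were not tested, and genes with near-identical copies can lose reads to them. All intervals are at 95% and cover counting error only, not the spread between animals.

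The paralogs came with the widest gaps between germ and somatic cells. Rpl39 encodes a small protein that lines the exit tunnel of the 60S subunit. The gene lies on the X chromosome at chrX:37082520-37085402, and its paralog Rpl39l lies on chromosome 16 at chr16:10170226-10174911. Their coding sequences have 156 bases each and differ at 23, an identity of 85.3%. They are shown because the counts of this pair separate germ from somatic cells, with the bases that differ within the pair in capitals.
Rpl39: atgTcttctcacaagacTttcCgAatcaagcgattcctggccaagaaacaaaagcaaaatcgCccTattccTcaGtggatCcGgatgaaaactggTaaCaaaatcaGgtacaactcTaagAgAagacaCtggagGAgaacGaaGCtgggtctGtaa
Rpl39l: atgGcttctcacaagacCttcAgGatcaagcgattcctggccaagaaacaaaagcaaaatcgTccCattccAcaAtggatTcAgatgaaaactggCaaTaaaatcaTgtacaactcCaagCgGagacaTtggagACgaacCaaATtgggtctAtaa

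Rpl22 on chromosome 4 and Rpl22l1 on chromosome 3 encode RNA-binding proteins of the 60S subunit and are further apart, with 69.6% identity over 391 aligned positions of which 26 are gaps. Capitals again mark what differs, and they are shown because the balance of this pair lay furthest apart between the germ cells of the 2 libraries. Of the alignment the first 300 positions are printed, 95 of them differing or gapped.
Rpl22: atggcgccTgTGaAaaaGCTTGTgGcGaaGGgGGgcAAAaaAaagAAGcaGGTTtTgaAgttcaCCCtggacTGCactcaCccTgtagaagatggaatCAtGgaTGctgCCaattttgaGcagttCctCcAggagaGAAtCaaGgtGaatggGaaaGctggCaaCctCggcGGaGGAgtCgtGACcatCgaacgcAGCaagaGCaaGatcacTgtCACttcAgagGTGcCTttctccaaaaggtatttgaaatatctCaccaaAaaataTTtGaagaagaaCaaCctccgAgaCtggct
Rpl22l1: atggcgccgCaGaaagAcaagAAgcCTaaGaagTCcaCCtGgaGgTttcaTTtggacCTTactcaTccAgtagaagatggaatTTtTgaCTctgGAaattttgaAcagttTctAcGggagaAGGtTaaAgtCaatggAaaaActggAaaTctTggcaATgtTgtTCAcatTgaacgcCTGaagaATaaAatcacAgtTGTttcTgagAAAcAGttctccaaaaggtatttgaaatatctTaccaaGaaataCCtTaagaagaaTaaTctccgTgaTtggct
In the last 400 bases of the annotated transcripts, where 3′ reads fall, the longest identical run was 38 bases within the Rpl39 pair and 26 bases within the Rpl22 pair.

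Rpl39l was a germ cell transcript in both libraries. Its level was 669 CPM in wild-type germ cells (1491 UMIs) and 720 CPM in those of the KO-labelled library (213 UMIs), a ratio of 1.08 (0.928 to 1.24). In the somatic types of the wild-type library it had 34 UMIs in all, so that germ cells were 1040-fold higher (741 to 1507). The 4 somatic types of the KO-labelled library held 0 UMIs, and germ cells there were at least 10353-fold higher by the floor of 3 UMIs over the 4 types together (0.0695 CPM). The exact interval, which also takes in the counting error of the germ UMIs, had a lower bound of 8347-fold. All 67 wild-type germ cells had a Rpl39l UMI, against 14 of 1941 Sertoli cells (0.721%), at median depths of 33277 and 13017 UMIs per cell. After each cell was thinned to 5000 UMIs the shares were 97.0% and 0.364%, so that the gap remained at equal depth. The source of the few Sertoli UMIs was not tested.

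The parent gene was low where the paralog was high. Rpl39 stood at 902 and 632 CPM in germ cells, below all 8 somatic groups, which lay between 2440 and 4262 CPM. Rpl39l therefore made up 42.6% of the UMIs of the pair in wild-type germ cells (exact binomial interval 40.9 to 44.2%) and 53.3% in those of the KO-labelled library (48.2 to 58.2%). In somatic cells its share was at most 0.0217%. The pair together came to 1571 and 1352 CPM in germ cells, less than the 2440 CPM of the pair in wild-type Leydig cells, the lowest somatic group.

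Rpl10l, the autosomal paralog of the X-linked Rpl10, which encodes a protein needed to join the subunits, showed the same restriction at a lower level. It had 80.3 and 77.7 CPM in germ cells, from 179 and 23 UMIs, and at most 4 UMIs in any somatic group. The share of wild-type germ cells with a Rpl10l UMI was 86.6%, or 29.9% after thinning, and in wild-type Sertoli cells it was 0.206% before and 0.0520% after. Rpl10l was 14.6% (12.6 to 16.7%) and 21.9% (14.4 to 31.0%) of its pair in germ cells. Rpl3l, known from heart and skeletal muscle, had 26 and 16 UMIs in germ cells and 3 UMIs in all somatic groups together, which put it at 0.858% and 3.52% of the Rpl3 pair.

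The other paralogs were shared by all cell types, and their balance with the parent differed between types. Rpl22l1 was 28% and 31.6% of the Rpl22 pair in Sertoli cells, 44.0% and 44.6% in Leydig cells, 49.2% and 46.9% in myoid cells, and 50.2% and 47.8% in stroma cells. The somatic values of the 2 libraries were thus close, with Sertoli cells apart from the rest. In wild-type germ cells the share was 55.5% (54 to 56.9%). In germ cells of the KO-labelled library it was 95.5% (94.3 to 96.5%), from 1409 UMIs of Rpl22l1 and 67 of Rpl22. Both genes differed in that comparison. Rpl22l1 stood at 1189 and 4762 CPM, and Rpl22 at 955 and 226 CPM.

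Rps27l, a target of p53 in other cells, was 22.4% and 22.4% of its pair with Rps27 in Sertoli cells and 22.0% and 20.6% in Leydig cells, but only 12.3% and 11.5% in myoid and 11.8% and 11.5% in stroma cells. Wild-type germ cells had the highest share at 35.3% (33.6 to 37.1%), and in germ cells of the other library it was 10.2% (7.86 to 12.9%), an interval that covered the myoid and stroma shares. Thinned to 5000 UMIs per cell, the latter germ share was 15.6%. Rpl36al was 19.3% of the Rpl36a pair in wild-type Sertoli cells, 30.0% and 31.5% in Leydig cells, 9.61% and 10.6% in myoid cells, and 8.94% and 9.52% in stroma cells, against 34.4% and 23.6% in germ cells. Rps4l, a retrocopy annotated as a pseudogene, was 38.1% of its pair with the X-linked Rps4x in wild-type germ cells and 6.54% in those of the KO-labelled library, where somatic groups lay between 3.34 and 7.78%. Rps27rt, a near copy of Rps27 that can share its reads, was between 1.67 and 4.95% of its pair in all 10 groups.

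**Figure D1:**
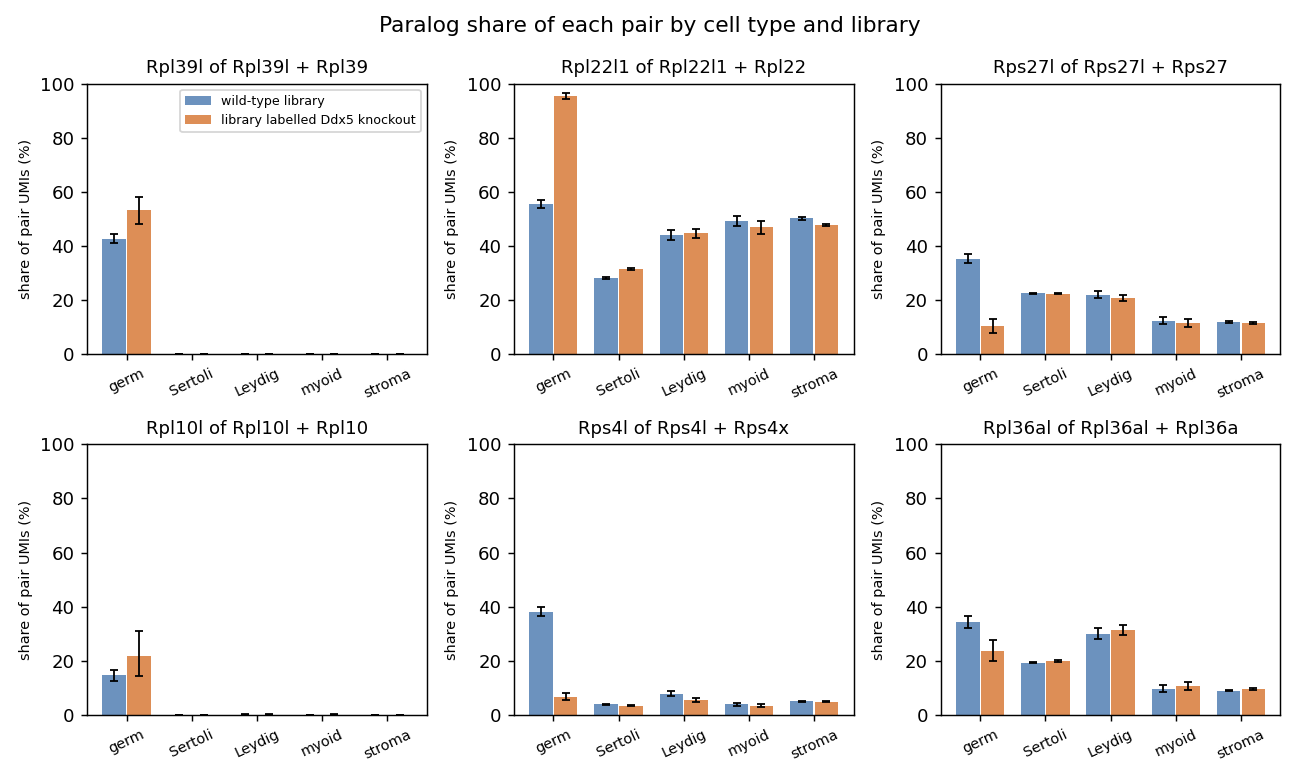
Share of each paralog in the UMIs of its pair, in percent, for germ cells and 4 somatic types of the wild-type library (blue) and the KO-labelled library (orange), with exact binomial 95% intervals as error bars. Rpl39l and Rpl10l bars are visible in germ cells only, the Rpl22l1 bar of 95.5% stands apart from all others of its panel, and somatic bars of the 2 libraries lie close together.

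Within a somatic type the family share was close in the 2 libraries. Its share of all UMIs was 18.6% and 19.2% in Sertoli cells, 13.6% and 15.0% in Leydig cells, 23.1% and 24.0% in myoid cells, and 20.9% and 21% in stroma cells. The 40S members made up 43.4 to 45.0% of the family in the 8 somatic groups. The order of the 87 genes by level was close in all of them, with Spearman's rho between 0.889 and 0.997 across genes, which are not independent replicates and which share libraries. Among the highest mean levels over the 8 groups were those of Rpl23 (5031 CPM), Rps24 (4661 CPM), Rpl13 (4543 CPM) and Rps27a (4339 CPM), the last encoding a ubiquitin fusion. The lowest were Rpl6l, Rpl32l, Rpl39l, Rpl10l and Rpl3l, each at a mean below 2 CPM. Rps6, the phosphorylated 40S protein, was listed at only 254 CPM, and 11.4% of the UMIs of Rps6 and its pseudogene rows fell on the pseudogenes, the largest such share of any member. The next was 1.58%. The levels of members with such copies are uncertain for that reason.

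Between the libraries no member differed by 1.5-fold or more in any somatic type, 0 of 82 higher and 0 of 82 lower. Over all 9056 genes tested, those with a mean of at least 10 CPM, 14.3% were higher and 15.2% lower by that measure in at least 1 somatic type. The median member difference was 0.06 and that of all genes −0.01 on the log2 scale. Blood transcripts were more abundant in one library, the summed level of 4 hemoglobin genes being 3.66 to 42.9 CPM in wild-type somatic groups and 12.9 to 807 CPM in those of the other library. Macrophage markers summed to 8.88 and 330 CPM in Leydig cells and 15.5 and 166 CPM in stroma cells. Their part in the member values was not tested.

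The level of the whole family was low in Leydig and high in myoid cells, with median log2 differences of −0.52 and 0.35, and near that of the other types in Sertoli (−0.03) and stroma cells (0.15). Each type was compared with the mean log2 level of the other 3, and a member counted as higher or lower when it differed by at least 1.5-fold in both libraries. In Leydig cells, the steroid-making cells of the interstitium, 22 of 82 members were lower, against 23% of all genes, and 0 were higher, against 18.7%. The median of all genes was −0.08. With CPM taken outside the ribosomal protein genes, 41 members were lower, against 27.0% of all genes, so that how the members stood to the background depended on the scaling. In Leydig cells mitochondrial UMIs were 7.08% and 6.77%, and in the other somatic groups 1.87 to 2.85%. With cells limited to 5% mitochondrial UMIs, which left 12 and 14 Leydig cells, 5 members were lower. The link between the 2 measures was not tested. In myoid cells, the contractile cells around the cords, 11 members were higher, against 14.2% of all genes, and 0 were lower, against 14.2%. The count of higher members was thus at the background, while the median of all genes was −0.08. The count was 17 with CPM outside the ribosomal protein genes, 3 with at most 5% mitochondrial UMIs and 4 when cells that met another rule too were kept.

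In Sertoli cells, which nurse the germ cells, only Rps27l was higher, against 21% of all genes, and Rpl22l1, Rplp1 and Rps4l were lower, against 17.7%. In stroma cells Rplp1 and Rps4l were higher, against 16.7% of all genes, and Rpl36al and Rps27l were lower, against 12.7%. When cells that met another rule too were kept, 0 members were higher or lower in either type. Rplp1 encodes an acidic protein of the stalk that recruits elongation factors. It stood at 2579 and 2716 CPM in Sertoli cells, 2136 and 2529 CPM in Leydig cells, 5531 and 5415 CPM in myoid cells, and 5412 and 5178 CPM in stroma cells. The tubule and steroid cells were thus low and the mesenchymal cells high, with no overlap.

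To see the composition of the family apart from its level, each member was taken as a share of all ribosomal protein UMIs. On this scale the SD of the member differences from the other somatic types was 0.24 in Sertoli, 0.32 in Leydig, 0.22 in myoid and 0.23 in stroma cells (log2, 82 members). The differences of the 2 libraries went together, with Pearson's r of 0.96 to 0.98 across members. For comparison, the SD between libraries within a somatic type was 0.08 to 0.13. Leydig cells stood out by Rpl36al (1.17 and 1.24), Rps27l (1.19 and 1.12) and Rpl36 (0.84 and 0.78), and they had the lowest shares of Rpl12, which lies at the base of the stalk (−0.73 and −0.52), Rps12 (−0.59 and −0.51) and Rps19 (−0.56 and −0.52), the gene first linked to Diamond-Blackfan anemia. Sertoli cells had high shares of Rps27l (0.64 and 0.70), Rpl13a (0.63 and 0.55) and Rpl27a (0.46 and 0.41), and low ones of Rpl22l1 (−0.78 and −0.56), Rps4l (−0.75 and −0.63) and Rplp1 (−0.62 and −0.57). In myoid cells the stalk base Rplp0 (0.57 and 0.48), Rpsa (0.51 and 0.43), which is also known as the laminin receptor, and Rplp1 (0.43 and 0.32) were high. There Rps27l (−0.87 and −0.97), Rpl36al (−0.71 and −0.64) and Rpl23a (−0.61 and −0.57) were low. Stroma cells shared the low Rps27l (−0.97 and −0.86) and Rpl36al (−0.83 and −0.89) and had more of Rps4l (0.40 and 0.70), Rplp1 (0.58 and 0.49) and Rpl10 (0.46 and 0.42), with a low share of Rpl13a (−0.33 and −0.45).

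**Figure D2:**
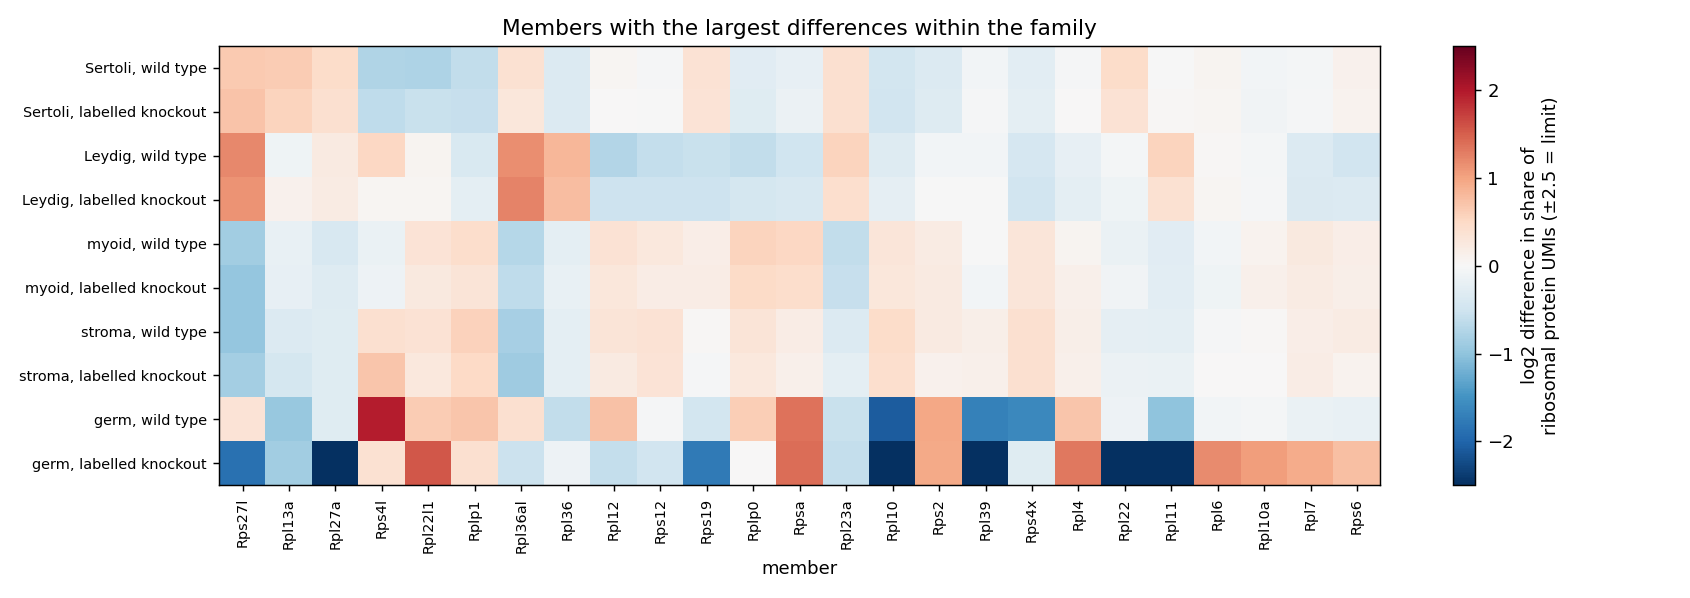
Members named for the largest differences within the family or between the germ groups (columns) by cell type and library (rows). Colour is the log2 difference of a member's share of ribosomal protein UMIs from the other somatic types, or for germ cells from the 4 somatic types, and colours are cut off at 2.5, so that values such as −4.05 for Rpl10 in germ cells of the KO-labelled library are shown at the limit. Rows of 1 somatic type look alike in the 2 libraries, and the 2 germ rows differ.

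Wild-type germ cells differed from the somatic types in composition by more than these did from each other. The SD of the members on the family-share scale was 0.65 (82 members). On the CPM scale, with germ cells set against the mean log2 level of the 4 somatic types, 6 of 84 members were at least 1.5-fold higher, against 37.2% of all genes, and 25 were lower, against 29.1%. The median was −0.30, where all genes had 0.17. The 6 were Rpl10l, Rpl39l, Rplp2, Rps2, Rps4l and Rpsa. Rpl10l and Rpl39l, at most 0.923 CPM in any wild-type somatic group, passed the 10 CPM minimum only through the germ value. Their higher calls were thus fixed by the filter, and the shares of all genes rest on the same minimum. Members were ranked by family share if they had at least 50 UMIs in germ cells and each somatic group of the library. This left out Rpl39l and Rpl10l, and Rps4l (1.96), Rpsa (1.36) and Rps2 (0.96) were highest. Rpsa stood at 6635 CPM in wild-type germ cells and between 1745 and 4976 CPM in the somatic groups. Rps2, a 40S protein at the mRNA entry, stood at 4727 CPM against 2030 to 4157 CPM. The ribosomal protein share of wild-type germ cells was 15.6%, between those of Leydig and Sertoli cells, and mitochondrial UMIs were 6.11%. Genes of ribosome biogenesis, a separate list of 25 genes that build rather than form the ribosome, were higher in 20 and lower in 0, with a median of 1.33. Of these, Polr1b and Rrp12 had a mean below 10 CPM over the somatic groups. They passed the minimum with the germ value included, which favours a higher call.

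Among the members so ranked, the lowest in wild-type germ cells were Rpl10 (−2.09), Rpl39 (−1.69) and Rps4x (−1.60), and all of them lie on the X chromosome. The pseudogene Rpl6l on chromosome 10, with 1 UMI in these cells, was at −1.61 but did not reach the limit of 50 UMIs. Position was looked at after these values were seen. Only 4 of the 87 members are X-linked, the fourth being Rpl36a, and all 4 were at least 1.5-fold lower on the CPM scale, with log2 differences of −2.34 for Rpl10, −1.94 for Rpl39, −1.86 for Rps4x and −1.40 for Rpl36a. Of 80 autosomal members 21 were lower, with a median of −0.28. Over all X-linked genes tested 48.4% were lower and 27.5% higher in wild-type germ cells, and over autosomal genes 28.3% and 37.6%. The X-linked members were therefore low in a set of genes that was itself more often low. Each of the 4 has an autosomal relative in the table, Rpl10l, Rpl39l, Rps4l and Rpl36al, and all of these made up a larger share of their pair in wild-type germ cells than in any somatic group. For Rpl36al this came with a low parent, since Rpl36al itself was at 284 CPM in wild-type germ cells and 188 to 441 CPM in somatic groups. Rps4x stood at 969 CPM in wild-type germ cells and 2056 to 5127 CPM in somatic groups, and Rpl10 at 470 CPM against 1477 to 3775 CPM.

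The germ cells of the KO-labelled library were 8 cells with 295905 UMIs in all, and their family share was 33.8%. Single cells ran from 26.7 to 47.4%. Of these, 7 lay above all 67 wild-type germ cells, which ran from 11.6 to 28.3%, and the lowest had 1 wild-type cell above it. Mitochondrial UMIs were lower in this group, at 2.72%. Depth was similar, with a median of 26715 UMIs per cell against 33277. The long nuclear RNA Malat1 stood at 1869 CPM, near the 1685 CPM of wild-type germ cells and far below the 9312 to 31544 CPM of somatic groups. Of 12 germ cell markers 2 were at 0, and their summed level was 2166 CPM against 3730 CPM in wild type. Summed markers of other cells lay on both sides. Lower in the KO-labelled germ cells were 6 macrophage markers (163 and 10.1 CPM, 4 of 6 at 0), 10 Sertoli markers (209 and 112 CPM, 1 at 0) and 5 endothelial markers (70.9 and 37.2 CPM, 1 at 0). Higher were 7 myoid markers (53.4 and 81.1 CPM, 1 at 0), 8 stroma markers (167 and 193 CPM, 3 at 0) and 4 red blood cell markers (10.8 and 27.0 CPM), while 8 Leydig markers were at 152 CPM in both. Their part in the germ values was not tested.

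**Figure D3:**
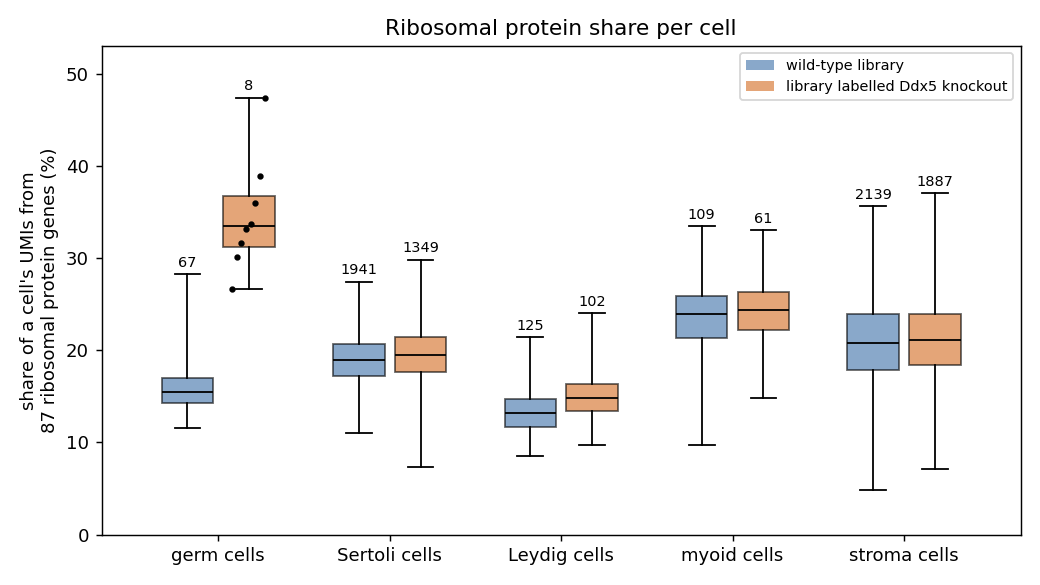
Share of the UMIs of each cell that came from the 87 ribosomal protein genes, by cell type, in the wild-type library (blue) and the KO-labelled library (orange). Boxes show quartiles and median, whiskers the lowest and highest cell, numbers the count of cells, and points the 8 germ cells of the second library, which run from 26.7 to 47.4%.

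Against the somatic types of the same library, 42 of 85 members were at least 1.5-fold higher in these cells, where all genes gave 24.9%, and 16 were lower, where all genes gave 51.7%. Among the higher members, Rpl39l, Rpl10l and Rpl3l were at most 0.0918 CPM in the somatic groups of this library. They passed the 10 CPM minimum only through the germ value, so that their calls were fixed by the filter. The median of the members was 0.55, against −0.67 for all genes. The order of the members was also further from that of somatic cells. Spearman's rho across the 87 genes was 0.593 to 0.657 with the somatic groups, while wild-type germ cells had 0.738 to 0.808, and the 2 germ groups had 0.820 with each other. The SD on the family-share scale was 1.21 (80 members). With the same limit of 50 UMIs per group, the highest shares relative to somatic cells were those of Rpl22l1 (1.55), Rpsa (1.39) and Rpl4 (1.31). The lowest were those of Rpl10 (−4.05), Rpl22 (−3.28) and Rpl11 (−3.26). Of the X-linked members, Rpl10 and Rpl39 stayed low on the CPM scale (−3.26 and −2.41 in log2), while Rps4x (0.49) and Rpl36a (−0.41) were within 1.5-fold of somatic cells.

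Set directly against wild-type germ cells, 56 of 85 members were at least 1.5-fold higher in the KO-labelled library and 9 were lower. Over all genes 19.5% were higher and 51.2% lower, so that the family went against the general direction. The median was 1.08 for the members and −0.62 for all genes. With CPM taken outside the ribosomal protein genes, the medians were 1.43 and −0.21, and the counts of members 61 and 7, while all genes gave 29.7% higher and 39.5% lower. Both subunits took part, with 19 of 33 40S and 37 of 52 60S members higher. The differences were uneven, and the SD of the members on the family-share scale was 0.99 (84 members). Both groups are single libraries and 1 of them has 8 cells, so that no spread between animals stands behind these values.

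Among members with at least 50 UMIs, the largest ratios were those of Rpl6, Rps4x, Rpl10a, Rpl7 and Rps6. Rpl6, a 60S protein, stood at 1570 CPM in wild-type germ cells and 8101 CPM in those of the other library, a ratio of 5.16 (4.90 to 5.44). Rps4x stood at 969 and 4975 CPM, a ratio of 5.14 (4.8 to 5.49). Rpl10a, a protein of the L1 stalk, stood at 1404 and 6438 CPM, Rpl7 at 1492 and 6827 CPM, and Rps6 at 167 and 760 CPM. In single cells, all 8 lay above the highest of 67 wild-type cells for Rpl6, Rpl10a and Rpl7, 6 did so for Rps4x and 4 for Rps6. For the ubiquitin fusion gene Rps27a, named for its high level, this was also 8 of 8, with 10397 to 16671 CPM against at most 9640 CPM.

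Among the lowest ratios were those of Rpl22, Rpl27a, Rpl11 and Rps27l. Rpl22 had a ratio of 0.237 (0.183 to 0.302), and 4 of the 8 cells lay below the lowest wild-type cell. Rpl27a stood at 757 and 301 CPM, and Rpl11, which with Rpl5 binds Mdm2 and so links ribosome assembly to p53, at 1269 and 551 CPM. Below the lowest wild-type cell were 6 and 5 of the 8 cells for these genes. Rps27l stood at 461 and 203 CPM, with 1 of 8 cells below. Also lower by 1.5-fold were Rpl10, Rps23, Rps3 and Rps4l. Rps23, which lines the decoding center, stood at 1817 and 872 CPM, and Rps3, at the mRNA entry, at 1949 and 1017 CPM. None of Rpl22, Rpl11, Rpl27a, Rps23 and Rps3 differed by 1.5-fold between libraries in a somatic type.

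**Figure D4:**
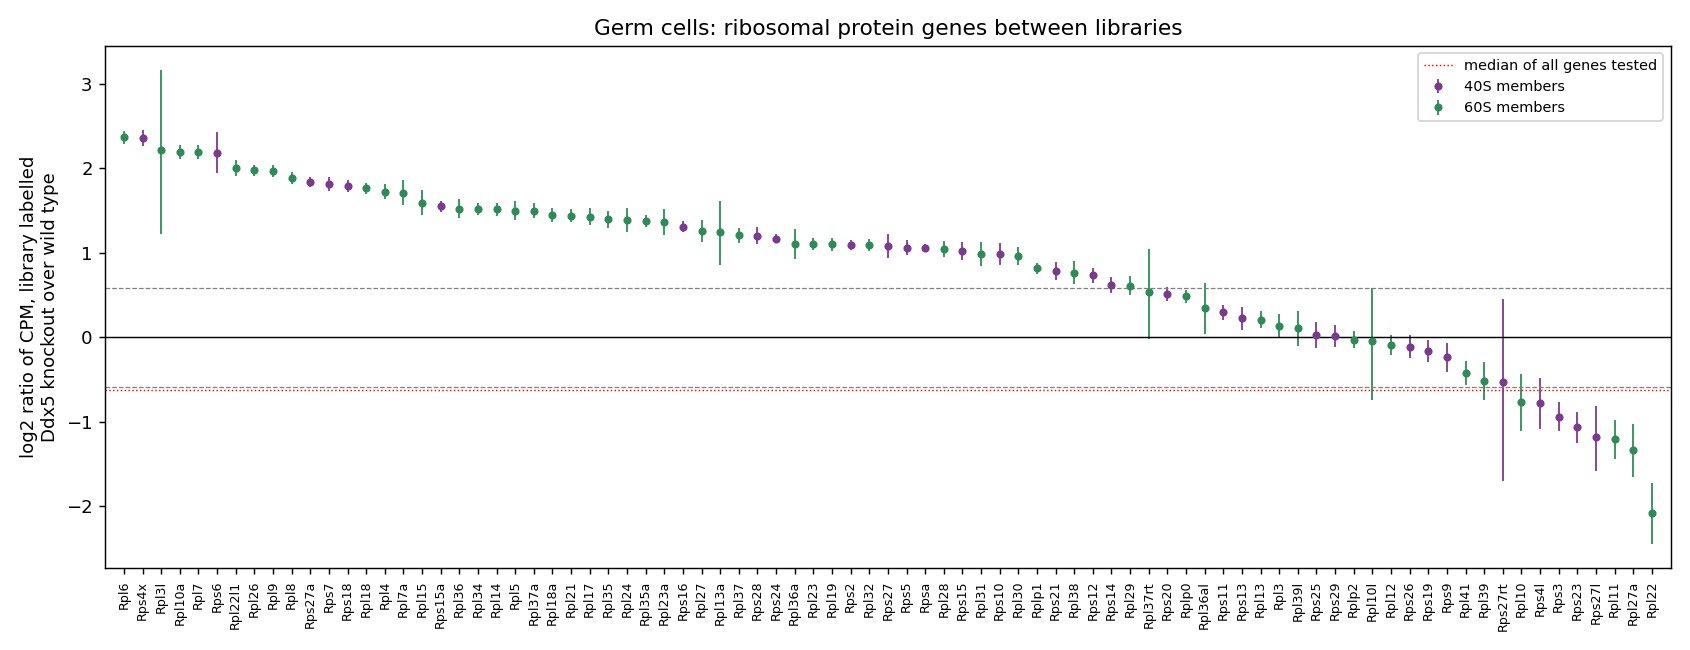
Log2 ratio of CPM in germ cells of the KO-labelled library over wild-type germ cells for 83 of the 85 members in order of size, 40S members purple and 60S members green, with 95% counting intervals. Dashed lines mark 1.5-fold and the dotted line the median of all genes tested, −0.62; most points lie above 0, with Rpl6 (ratio 5.16) at the left end and Rpl22 (ratio 0.237) at the right end.

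Genes close to the family in function were read from lists. Of 17 other translation genes known for the same pyrimidine start, 11 were higher in germ cells of the KO-labelled library against wild type and 2 lower, Hnrnpa1 and Npm1, with a median of 0.96. Of 25 ribosome biogenesis genes, 3 were higher (Ncl, Rrp12 and Utp4) and 15 lower, with a median of −0.89. With 19.5% of all genes higher, 51.2% lower and a median of −0.62, the biogenesis list lay near this background.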

How the data were processed

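Single testicular cells were captured with the 10x Genomics 3′ kit. The deposited table holds raw UMI counts of genes in barcodes before cell filters, GFP and CRE rows included. The submitters' processing notes name Cell Ranger 3.1.0, GRCm38 and Seurat 3.1.5. The annotation is not given in the sources used here. Total counts were 84263163 and 67558106 UMIs. Filtering at 2000 genes and 10% mitochondrial UMIs left 6329 and 4950 cells, 6328 and 4950 with more than 2000 genes, the numbers the study gives for wild type and knockout, which is how suffixes were assigned.

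Counts were summed per cell type and library, scaled to CPM and compared on log2(CPM + 1) for genes with a mean of at least 10 CPM. For germ cells against somatic types, that mean took in the germ value. Genes were called at 1.5-fold without a test, since cells are not replicates. Intervals were exact (Poisson, conditional binomial, Clopper-Pearson). Doublets were called per library with Scrublet (scanpy 1.11.5), 284 and 296 cells, and kept. Paralog pairs, the 5 highest and 5 lowest levels, the 3 highest and 3 lowest members per cell type on the family-share scale with at least 50 UMIs, and the 5 highest and 5 lowest germ ratios were named. Other members were named after their values were seen. Members and lists were chosen with earlier results of these data known. Some genes the rule selected are not reported here. Python 3.11.15 with scipy 1.17.1 was used, and the calculations were tested on simulated data. Sequences are from GENCODE M21 transcripts.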

Additional observations from a re-analysis of the deposited data

Results flagged for a closer look

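In germ cells 3 members lay on opposite sides of the somatic types in the 2 libraries, each by at least 1.5-fold and out of 84 members tested. Rpl37a had a log2 difference of −0.62 in wild type and 0.84 in the KO-labelled library. Rpl9 had −0.76 and 1.14, and Rpl36 had −0.88 and 0.66. The difference between the libraries was not tested, since each is a single library. No member lay the opposite way round.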

How the results depend on the processing

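No test was made, so that every value below is a count or share without a p, and it rests on 1 library per genotype. No paired analysis was possible because barcodes carry no library number. Of 186 alternative values over 22 results, 143 kept within 1.5 times the main count or within the counting interval and 43 did not. The counts of members higher (47 to 61) and lower (6 to 11) in KO-labelled against wild-type germ cells were within 1.5 times under every alternative. With CPM outside ribosomal protein genes, 17 members were higher in myoid, 41 lower in Leydig and 1 lower in stroma cells. With at most 5% mitochondrial UMIs (19 wild-type germ cells left), 3 were higher in myoid and 0 in stroma cells, 5 lower in Leydig and 1 in stroma cells, 2 higher and 2 lower between libraries in somatic types, and wild-type germ shares were 68.5% for Rpl22l1, 40.7% for Rpl39l and 31.1% for Rps27l. With cells of more than 1 type kept, 4 were higher in myoid, 0 in Sertoli and 0 in stroma cells, 0 lower in Sertoli and 0 in stroma cells, and germ shares were 53.8% (wild type) and 93.9% (KO-labelled) for Rpl22l1, 30.2% and 47.0% for Rpl39l, and 31.2% for wild-type Rps27l. At a fold of 2, 0 were higher in Sertoli, myoid and stroma cells, 0 lower in Sertoli and stroma cells, 3 lower in Leydig and 9 in wild-type germ cells, since that rule is stricter. With the mean over cells, 1 was higher in Leydig cells, 1 lower in Sertoli cells and 1 lower between libraries, and wild-type germ shares were 57.4% for Rpl22l1 and 32.9% for Rps27l. Thinned to 5000 UMIs, 1 was higher in Leydig and 4 in stroma cells, 1 lower between libraries, and Rps27l was 32.6% and 15.6% in germ cells. With no minimum level, 2 were higher in Sertoli cells and 3 lower between libraries. In wild-type germ cells with more than 2 GFP UMIs and KO-labelled germ cells with more than 1 CRE UMI (32 and 3 cells, an alternative chosen after seeing the data), wild-type Rpl22l1 was 57.9% and KO-labelled Rpl39l 59.2%. Removing called doublets and a pseudocount of 10 CPM moved none. Except where cells or the fold were restricted, the cause was not tested.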

Other observations

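The wild-type germ cell with the highest ribosomal protein share, 28.3% of its 32158 UMIs, was looked at after its value was seen. The next wild-type cell had 25.5%. It held 5 GFP and 0 CRE UMIs, and 2.13% of its UMIs were mitochondrial. Its levels of Rpl6 (5286 CPM), Rpl7 (4478 CPM), Rpl10a (4602 CPM), Rps4x (3980 CPM), Rps27a (9640 CPM) and Rpl22l1 (5753 CPM) were the highest of the 67 wild-type germ cells. Rpl22 had 14 UMIs and Rpl22l1 had 185, Rpl27a had 14, and Rpl11 had 18. Of the germ cell markers, Dazl had 42 UMIs, Ddx4 10, Sall4 5 and Dmrt1 1.

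Within the 8 germ cells of the KO-labelled library, the cell with the highest ribosomal protein share (47.4%) had the fewest genes (2644), 0 CRE UMIs and Ddx5 at 550 CPM. The other 7 cells had 1 to 4 CRE UMIs, 4794 or more genes and Ddx5 between 1539 and 2189 CPM.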
